A study of Mus musculus with 8 samples.

Results

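ATP-binding cassette (ABC) transporters and organic anion transporting polypeptides were described in livers of adult male ob/ob mice given leptin for 12 days, at 0, 12.5 or 25 ng/hr. The members were all probes of the array whose gene symbol is Abc followed by a letter from a to g and a number, or Slco followed by a digit. They numbered 99 of 25697 probes and 59 of 18120 gene symbols, with 80 probes for 46 Abc symbols and 19 for 13 Slco symbols. A probe counted as above background where its detection p-value was under 0.05 on at least 2 of the 8 arrays. This held for 60 of the 99 probes, from 36 of the 59 genes, and for 13760 probes of the whole array.

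RNA of each liver sample was hybridised to 1 position of an Illumina BeadChip, and all 8 arrays lie on 1 chip. The 0 ng/hr controls are replicates 1 to 3, the 12.5 ng/hr group is replicates 4 and 5, and the 25 ng/hr group is replicates 6 to 8. All mice were ob/ob according to the series title, a strain without functional leptin, so the controls lack the hormone and are no lean animals. The agent field of the labels names leptin for the 0 ng/hr arrays and no treatment for the 25 ng/hr arrays, against title, source and dose, which were followed here. Every direction given rests on the dose being right. Doses lie in order along the chip, so that position on the chip and dose cannot be told apart. Nothing in the labels says that the arrays come from different animals, and p-values then measure only the spread between these samples.

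Between 12094 and 12783 probes were above background on each array (47.1% to 49.7%), and so were between 55 and 60 of the 99 transporter probes. Log2 values of arrays of the same dose correlated across probes with r from 0.9875 to 0.9929, against 0.9803 to 0.9921 for arrays of different doses. Signals are given as the log2 of the background-corrected, normalized intensity of a probe, and no probe's level was set against that of another. Of the hepatocyte markers on the array 5 of 6 were above background, and Tat was not. Their summed normalized intensity was 122400 to 125900 at 0 ng/hr, 128900 to 131900 at 12.5 ng/hr and 130900 to 137700 at 25 ng/hr. For 25 minus 0 ng/hr 2 of the 5 tested probes lay above 0, Apoa1 (0.32) and Serpina1c (0.42). Cps1, Cyp2e1 and Ttr lay below 0, and the median log2 difference was -0.05.

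ABC proteins use ATP to move substrates across membranes. In hepatocytes a set of them sits in the canalicular membrane and secretes bile salts, phospholipids, sterols and conjugates into bile, while others return conjugates to the blood across the sinusoidal membrane. Organic anion transporting polypeptides, encoded by Slco genes, need no ATP and take bile salts, bilirubin, hormones and drugs up from the blood. Further ABC proteins serve peroxisomes, mitochondria and lysosomes, and members of the E and F families are soluble and act with ribosomes.

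The promoter of Abcb11, the bile salt export pump gene, is shown because bile salts control this gene through a nuclear receptor. In the RefSeq annotation of GRCm38.p6 the 250 bases before its start lie at chr2:69342617-69342866 on the minus strand. Capitals mark TGACCT, the reverse complement of the nuclear receptor hexamer AGGTCA, which lies 56 bases upstream of the start.

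Abcb11: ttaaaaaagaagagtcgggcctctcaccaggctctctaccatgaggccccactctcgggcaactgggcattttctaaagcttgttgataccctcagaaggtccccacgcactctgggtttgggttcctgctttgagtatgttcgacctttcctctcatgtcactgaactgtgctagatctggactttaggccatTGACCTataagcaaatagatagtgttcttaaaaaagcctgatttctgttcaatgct

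Abcg5 and Abcg8 encode both parts of the sterol exporter and are transcribed in opposite directions from starts that lie close together. The 109 bases between the starts, chr17:84683012-84683120 on the plus strand of GRCm38.p6, are shown because both genes share them. Capitals mark the 2 matches to TTATC, the reverse complement of the GATA box GATAA.

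Abcg5 to Abcg8: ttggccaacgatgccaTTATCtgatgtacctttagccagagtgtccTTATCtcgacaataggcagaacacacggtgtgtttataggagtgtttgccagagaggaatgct

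Of all RefSeq promoter windows of 109 bases, 9.36% hold at least 1 GATAA on either strand and 0.788% hold at least 2. Windows of 250 bases before the start were found for 28 of the 36 transporter genes above background, 35 windows in all. AGGTCA was present on either strand in 7 of these 35 windows (20%), against 14% of all 32851 windows, and the 7 belong to Abcb11, Abcb6, Abcc10, Abcc2, Slco1b2 and Slco4a1. GATAA was present in 7 of 35 windows (20%), against 22.6% of all. The STAT element TTCNNNGAA, whose factor lies downstream of the leptin receptor, was present in 3 of 35 windows (8.57%), those of Abcc5, Slco1b2 and Slco2b1, against 7.02% of all windows. AGGTCANTGACCT and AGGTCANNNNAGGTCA, which contain the hexamer AGGTCA, were in none of the 35 windows and in 0.00609% and 0.0152% of all. These matches describe letters in a window and nothing more.

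Which transporters the array could measure differed by family. All 4 peroxisomal and D-family genes, all 4 soluble E and F genes and all 4 mitochondrial and lysosomal B-family genes had a probe above background. So did 5 of 8 canalicular exporter genes, 6 of 13 uptake carrier genes, 4 of 6 C-family exporter genes, 1 of 2 sulfonylurea receptor genes and 8 of 18 genes of the A family and other lipid transporters. Among the 60 probes, 49 were above background on all 8 arrays and 11 on 2 to 7, and of the other 39 probes 6 passed on 1 array and 33 on none.

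**Figure D1:**
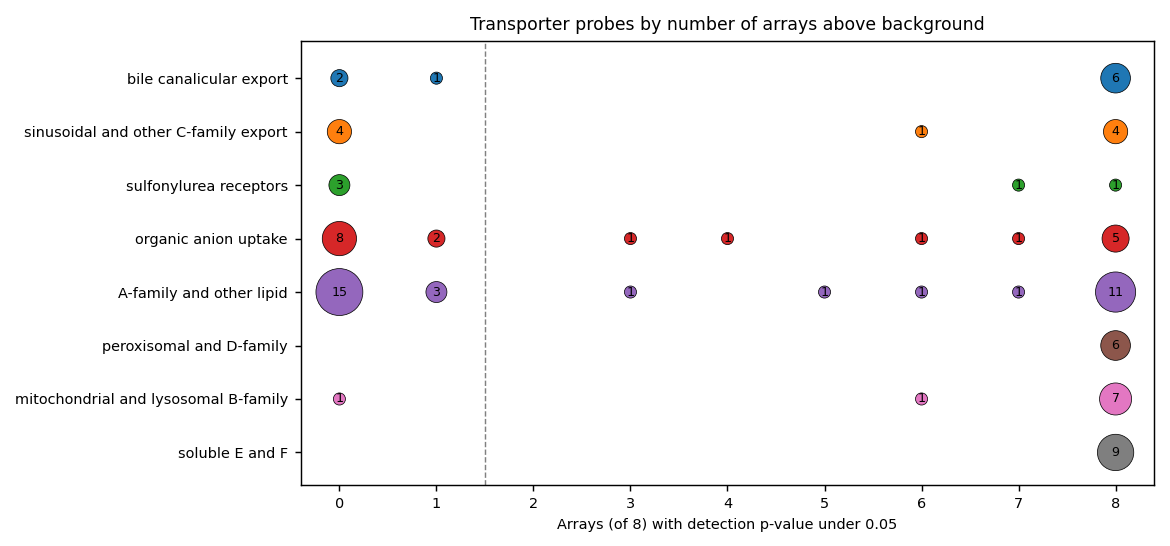
Number of arrays, of 8, on which each of the 99 transporter probes had a detection p-value under 0.05 (horizontal axis), by role of the gene (vertical axis). The number in each circle is the number of probes and its area follows that number, and the dashed line separates the 60 probes above background from the other 39. Probes of the D family and of the soluble E and F families lie at 8 arrays, while 15 probes of the A family and other lipid transporters lie at 0.

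The 23 genes without a probe above background include several with known roles in the liver. Abca1 and Abcg1 encode exporters of cellular cholesterol. The Abca1 probe was above background on no array, and the Abcg1 probe on 1 array at 12.5 ng/hr. Abcg2, Abcb1a and Abcb1b encode multidrug exporters, and of these the Abcb1b probe alone was above background, on 1 array at 12.5 ng/hr. Slco1a1, a male-predominant uptake carrier of mouse liver, was above background on 1 control array and on no leptin array. Its unscaled intensity was 77.3, 70.6 and 63.5 at 0 ng/hr, 68.0 and 69.9 at 12.5 ng/hr and 60.4, 63.1 and 60.5 at 25 ng/hr. These values carry no order, since 7 of the 8 were not above background. A probe for Slco1b2 and a probe for Slco1a4 were likewise at background on all 8 arrays, while other probes of the same genes were above background on all 8. A gene named here as not above background may thus have a probe that works poorly. Abcc4 is not among the 59 gene symbols of the members, so nothing can be said about it.

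No transporter probe passed the threshold in any of the 3 comparisons in limma's test with Benjamini-Hochberg adjustment over all 13760 probes. For 25 minus 0 ng/hr 0 of 60 were called, against 118 of 13760 (0.858%) on the whole array. For 12.5 minus 0 ng/hr 0 of 60 were called, against 0 of 13760 (0%). For 25 minus 12.5 ng/hr 0 of 60 were called, against 56 of 13760 (0.407%). Counts of 0 among 60 probes are near these background shares and are no result about the transporters. The smallest adjusted p among them was 0.101, 0.268 and 0.123 in these comparisons.

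Without adjustment, 15 of the 60 probes had a p under 0.05 for 25 minus 0 ng/hr, 4 higher and 11 lower (25%, against 17.0% of all probes). The 4 were of Abca8a, Abca9, Abce1 and Slco4a1, and the 11 included probes of Abca6, Abca7, Abcb9, Abcc2, Abcd2 and Slco1a4. Abca6, Abca7, Abcb9 and Abcd2 gave 2 such probes each. For 12.5 minus 0 ng/hr 6 probes did so, 2 higher and 4 lower (10%, against 11.2%), and for 25 minus 12.5 ng/hr 12 probes did, 5 higher and 7 lower (20%, against 12.8%). Probes of 1 gene share its RNA and are not independent.

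Groups did not overlap for 14 of 60 probes at 25 against 0 ng/hr (23.3%, against 22.6% of all probes), 4 higher and 10 lower. They did not overlap for 13 probes at 12.5 against 0 ng/hr (21.7%, against 28.4%), 4 higher and 9 lower. Between 25 and 12.5 ng/hr 24 probes did not overlap (40%, against 30.7%), 12 each way. The smaller the groups, the more often they fail to overlap without any difference, and each comparison with 12.5 ng/hr has 2 arrays on that side.

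The median log2 difference of the 60 probes was -0.02 for 25 minus 0 ng/hr, -0.06 for 12.5 minus 0 ng/hr and 0.00 for 25 minus 12.5 ng/hr, and over all probes it was 0.00, -0.00 and 0.01. The median size of the difference, without its sign, was 0.197, 0.138 and 0.178, against 0.136, 0.131 and 0.141 over all probes. Differences of at least 0.5 were seen in 5, 2 and 6 of the 60 probes (8.33%, 3.33% and 10%), against 5.95%, 4.79% and 5.68% of all. The median SD within groups was 0.169 for the transporter probes and 0.161 for all probes. Of 18 genes with several probes above background, the probes of 12 agreed in direction for 25 minus 0 ng/hr and those of 6 did not.

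**Figure D2:**
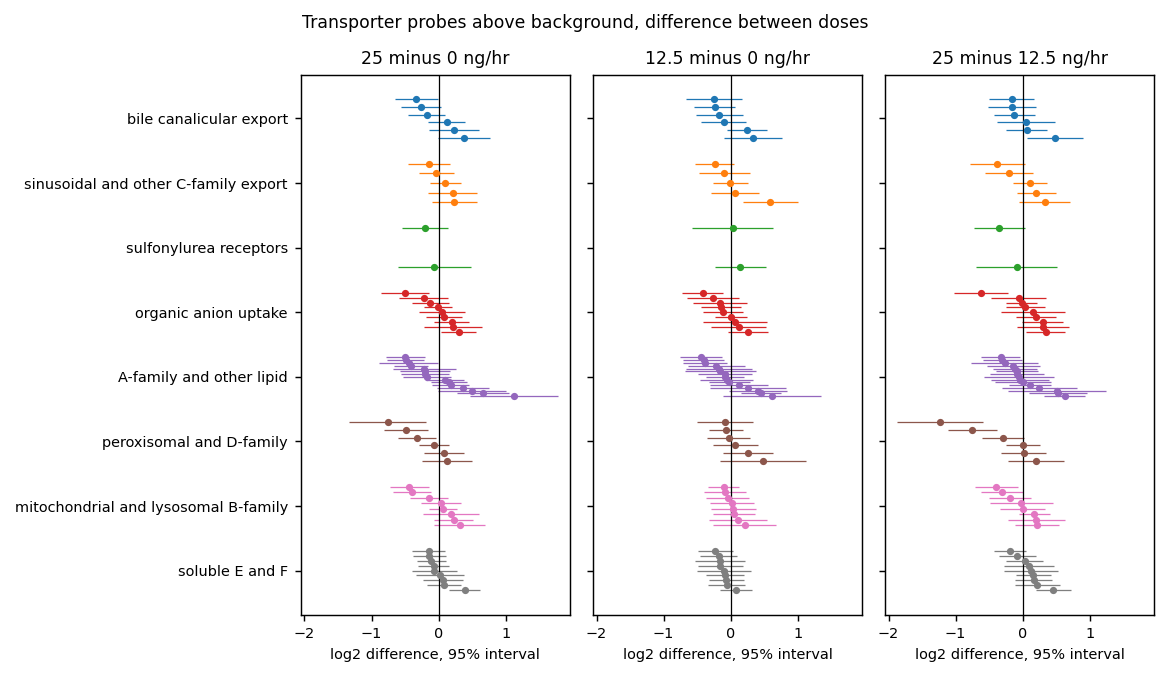
Log2 difference between doses (horizontal axes) for each of the 60 transporter probes above background, grouped by role (vertical axis), in the 3 comparisons. Points are estimates of the limma fit and lines their 95% intervals, before any adjustment for the number of probes. Differences for 25 minus 0 ng/hr ran from -0.76 (Abcd2) to 1.13 (Abca8a), and for 25 minus 12.5 ng/hr from -1.24 (Abcd2) to 0.63 (Abca2).

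The canalicular exporters were described first. Their 6 probes above background ran from -0.33 to 0.38 on the log2 scale for 25 minus 0 ng/hr, 3 above 0 and 3 below, with adjusted p from 0.274 to 0.670. Abcb11, whose promoter is shown above, had log2 signals of 10.65, 10.00 and 10.59 at 0 ng/hr, 10.14 and 10.19 at 12.5 ng/hr and 10.58, 10.75 and 10.61 at 25 ng/hr. All 3 arrays at 25 ng/hr lay above both at 12.5 ng/hr, while control replicate 2 was lower than all 7 other arrays and the other controls were close to the 25 ng/hr arrays. The log2 difference of Abcb11 was 0.48 for 25 minus 12.5 ng/hr (SE 0.18, 95% interval 0.07 to 0.89, adjusted p = 0.319) and 0.23 for 25 minus 0 ng/hr (SE 0.16, interval -0.14 to 0.60, adjusted p = 0.523).

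Abcb4 encodes the floppase that delivers phosphatidylcholine to bile. Its log2 signals were 13.05, 13.08 and 13.12 at 0 ng/hr, 12.95 and 12.75 at 12.5 ng/hr and 12.79, 13.13 and 12.80 at 25 ng/hr. Both 12.5 ng/hr arrays lay below the controls, whereas replicate 7 at 25 ng/hr lay above them. The difference was -0.18 for 25 minus 0 ng/hr (SE 0.12, interval -0.45 to 0.09, adjusted p = 0.506).

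Abcc2 exports bilirubin glucuronides and glutathione conjugates and had 2 probes above background. Probe ILMN_2655359 had log2 signals of 7.95, 7.67 and 8.06 at 0 ng/hr, 7.89 and 7.55 at 12.5 ng/hr and 7.60, 7.43 and 7.66 at 25 ng/hr. The 25 ng/hr arrays lay below the controls by a narrow gap, with 7.663 as their highest value against 7.667 as the lowest control. The difference was -0.33 (SE 0.14, interval -0.64 to -0.01, adjusted p = 0.274), and that of probe ILMN_2606719, whose groups overlapped, was -0.26 (SE 0.13, adjusted p = 0.357).

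Abcg5 had log2 signals of 11.92, 11.70 and 12.02 at 0 ng/hr, 12.26 and 11.99 at 12.5 ng/hr and 12.02, 12.04 and 11.94 at 25 ng/hr. Its partner Abcg8 had 10.68, 10.48 and 10.96 at 0 ng/hr, 11.23 and 10.85 at 12.5 ng/hr and 11.18, 11.27 and 10.81 at 25 ng/hr. Groups overlapped in each comparison for both genes. For 25 minus 0 ng/hr the difference of Abcg5 was 0.12 (SE 0.12, interval -0.15 to 0.39, adjusted p = 0.670), and that of Abcg8 was 0.38 (SE 0.17, adjusted p = 0.299). For 12.5 minus 0 ng/hr they were 0.24 (SE 0.13) and 0.34 (SE 0.19), with adjusted p of 0.551 and 0.562.

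**Figure D3:**
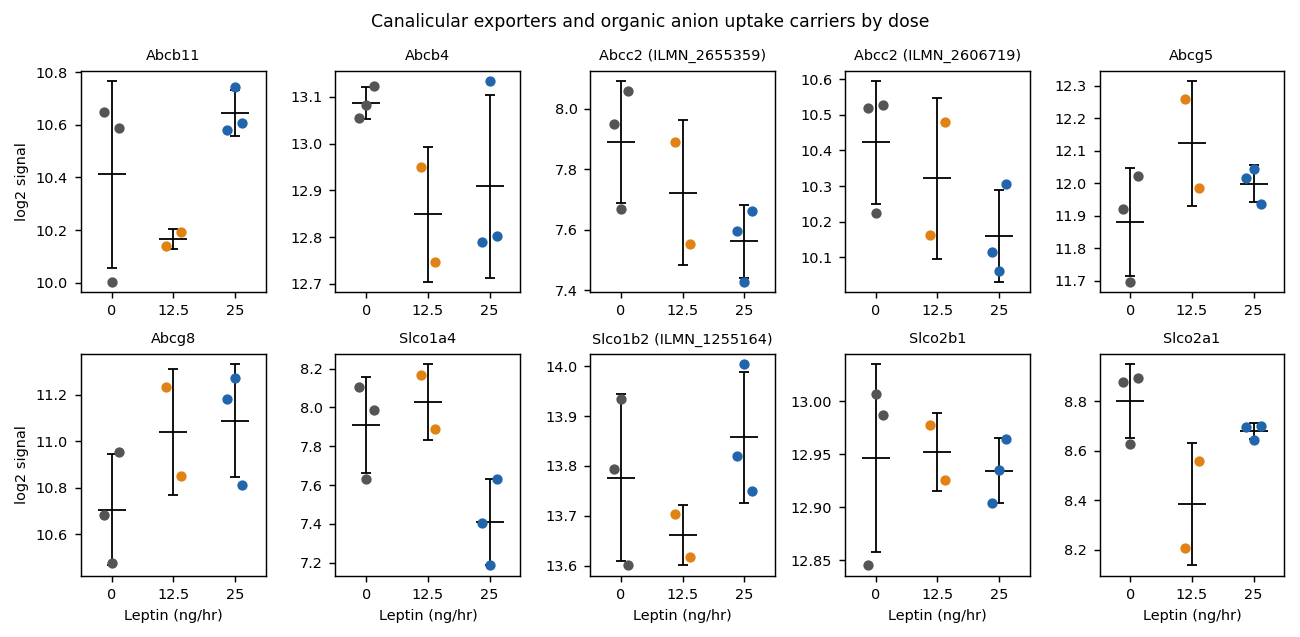
Log2 signal (vertical axes, which do not start at 0 and differ between panels) of canalicular exporter and organic anion carrier probes by leptin dose (horizontal axes). Points are arrays, long lines are means and bars are 1 SD (n = 3, 2 and 3). The 25 ng/hr arrays of Abcb11 lie above both 12.5 ng/hr arrays, the 25 ng/hr arrays of Slco1a4 lie below both 12.5 ng/hr arrays, and the signals of Slco2b1 stay between 12.85 and 13.01.

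Among the C-family exporters, Abcc3 carries glucuronides and bile salts back to the blood across the sinusoidal membrane. Its log2 signals were 10.97, 11.21 and 11.18 at 0 ng/hr, 11.30 and 11.07 at 12.5 ng/hr and 11.13, 11.10 and 10.70 at 25 ng/hr. Groups overlapped, and the difference for 25 minus 0 ng/hr was -0.14 (SE 0.14, interval -0.46 to 0.18, adjusted p = 0.666). Abcc6, a gene of hepatocytes whose loss leads to mineral deposits in soft tissues, averaged 9.14 ± 0.07 at 25 ng/hr and 9.04 ± 0.10 at 0 ng/hr (SD, n = 3 each), a difference of 0.10 (SE 0.10, adjusted p = 0.669).

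Abcc5, an exporter of organic anions that include cyclic nucleotides, had log2 signals of 5.40, 5.72 and 5.69 at 0 ng/hr, 6.18 and 6.21 at 12.5 ng/hr and 6.05, 5.95 and 5.46 at 25 ng/hr. Both 12.5 ng/hr arrays lay above all 6 others. The difference was 0.59 for 12.5 minus 0 ng/hr (SE 0.18, interval 0.18 to 0.998, adjusted p = 0.295) and 0.21 for 25 minus 0 ng/hr (SE 0.16, adjusted p = 0.560). Of the sulfonylurea receptor genes, which encode subunits of potassium channels, Abcc9 alone had probes above background, and for 25 minus 0 ng/hr these gave -0.20 and -0.06.

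The uptake carriers ran from -0.50 to 0.30 for 25 minus 0 ng/hr over 9 probes, 5 above 0 and 4 below, with adjusted p from 0.168 to 0.964. Slco1a4 encodes a carrier of bile salts and cardiac glycosides. Its log2 signals were 8.10, 7.63 and 7.99 at 0 ng/hr, 8.16 and 7.89 at 12.5 ng/hr and 7.40, 7.19 and 7.63 at 25 ng/hr. The 25 ng/hr arrays lay below both 12.5 ng/hr arrays and just below the controls, with 7.633 as their highest value against 7.634 as the lowest control. The difference was -0.50 for 25 minus 0 ng/hr (SE 0.16, interval -0.86 to -0.14, adjusted p = 0.168) and -0.62 for 25 minus 12.5 ng/hr (SE 0.18, interval -1.02 to -0.21, adjusted p = 0.209).

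Slco1b2 is the mouse counterpart of the human carriers that clear bilirubin and many drugs from the portal blood. Probe ILMN_1255164 had log2 signals of 13.79, 13.93 and 13.60 at 0 ng/hr, 13.70 and 13.62 at 12.5 ng/hr and 13.82, 14.00 and 13.75 at 25 ng/hr. Probe ILMN_1251837 had 11.37, 11.25 and 10.99 at 0 ng/hr, 11.14 and 10.98 at 12.5 ng/hr and 11.40, 11.44 and 11.36 at 25 ng/hr. On both probes all 25 ng/hr arrays lay above both 12.5 ng/hr arrays. For 25 minus 12.5 ng/hr the differences were 0.20 (SE 0.13, adjusted p = 0.575) and 0.34 (SE 0.13, adjusted p = 0.321), and for 25 minus 0 ng/hr 0.08 (SE 0.12) and 0.19 (SE 0.12).

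Slco2b1, a carrier of sulfated steroids, showed the narrowest range of the uptake carriers plotted by dose. Its log2 signals were 12.85, 13.01 and 12.99 at 0 ng/hr, 12.98 and 12.93 at 12.5 ng/hr and 12.90, 12.94 and 12.96 at 25 ng/hr. The difference for 25 minus 0 ng/hr was -0.01, with an interval from -0.22 to 0.20 (SE 0.09, adjusted p = 0.964). The prostaglandin transporter gene Slco2a1 had log2 signals of 8.88, 8.63 and 8.90 at 0 ng/hr, 8.21 and 8.56 at 12.5 ng/hr and 8.70, 8.64 and 8.70 at 25 ng/hr. Both 12.5 ng/hr arrays of Slco2a1 lay below all 6 others, and the difference was -0.42 for 12.5 minus 0 ng/hr (SE 0.14, interval -0.73 to -0.11, adjusted p = 0.336).

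The A family moves lipids, and it held the member with the largest positive difference for 25 minus 0 ng/hr. Abca8a, a lipid transporter gene of the group related to Abca6, had log2 signals of 7.42, 6.86 and 7.49 at 0 ng/hr, 8.29 and 7.47 at 12.5 ng/hr and 8.79, 8.53 and 7.84 at 25 ng/hr. All 25 ng/hr arrays lay above all controls, and the 12.5 ng/hr arrays overlapped both other groups. The log2 difference for 25 minus 0 ng/hr was 1.13, which is 2.19-fold (SE 0.29, interval 0.48 to 1.78, adjusted p = 0.108, n = 3 and 3). In the authors' deposited table the ratio of 25 to 0 ng/hr intensities of Abca8a was 1.93. That is a ratio of mean scaled intensities and not a background-corrected log2 difference, so the measures are unlike. Without 25 ng/hr replicate 8, the lowest of its group, the log2 difference was 1.40 and passed the threshold (adjusted p = 0.0497). Leaving out the lowest array had to raise the difference. This was the only 1 of 16 alternative settings in which Abca8a passed, and over them the difference ran from 0.92 to 1.40.

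Abca9, a close relative, had 3 probes above background. Probe ILMN_2699881 had log2 signals of 5.02, 5.13 and 5.27 at 0 ng/hr, 5.36 and 5.18 at 12.5 ng/hr and 6.14, 5.83 and 5.42 at 25 ng/hr. The 25 ng/hr arrays lay above all 5 others, with replicate 8 the lowest of them as it was for Abca8a. The difference for 25 minus 0 ng/hr was 0.66 (SE 0.17, interval 0.27 to 1.05, adjusted p = 0.112). Without replicate 8 it was 0.85 and passed (adjusted p = 0.0341), and here too leaving out the lowest array had to raise it. This was the only 1 of 15 alternative settings in which this probe passed, and over them the difference ran from 0.32 to 0.85. Probe ILMN_2699880 gave 0.50 (SE 0.22, adjusted p = 0.295) with overlapping groups. Probe ILMN_1253984 exceeded background on both 12.5 ng/hr arrays, on 1 of 3 at 25 ng/hr and on no control. By group means it was at least 1.25-fold higher at 12.5 than at 0 ng/hr. This bound was set against the lowest signal above background on each control array, or this probe's signal where it was the higher one. It leaves out the spread between arrays. The log2 difference in the fit was 0.45 (SE 0.13, interval 0.16 to 0.75, adjusted p = 0.268). This probe entered the test only through leptin arrays, so these values are no independent support for a rise.

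Marker genes of other cell types also differed between these arrays. Of the macrophage and Kupffer cell markers all 13 tested probes lay above 0 for 25 minus 0 ng/hr, with a median of 0.58, and 5 of them passed over all probes. Their summed normalized intensity was 2799 to 3041 at 0 ng/hr, 4045 to 4379 at 12.5 ng/hr and 4172 to 4804 at 25 ng/hr. Cd5l, another macrophage marker, was not above background. The adipocyte marker Cfd had log2 signals of 8.87, 8.51 and 7.61 at 0 ng/hr, 9.98 and 9.70 at 12.5 ng/hr and 11.13, 10.24 and 6.69 at 25 ng/hr, with the lowest value in replicate 8, while Plin, the other adipocyte marker on the array, was not above background. The part of these cells in the values of Abca8a and Abca9 was not tested. In such bulk samples fewer cells of a type and less RNA per cell cannot be told apart.

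Abca6, of the same group, lay on the other side of 0. Probe ILMN_2965612 had log2 signals of 9.41, 9.34 and 9.35 at 0 ng/hr, 8.82 and 9.15 at 12.5 ng/hr and 8.71, 8.82 and 9.08 at 25 ng/hr. Probe ILMN_2965613 had 9.07, 8.96 and 8.96 at 0 ng/hr, 8.40 and 8.78 at 12.5 ng/hr and 8.50, 8.40 and 8.62 at 25 ng/hr. On both probes all 5 leptin arrays lay below all 3 controls. The difference for 25 minus 0 ng/hr was -0.49 on each (SE 0.13 and 0.12, adjusted p = 0.113 and 0.101), and for 12.5 minus 0 ng/hr it was -0.38 and -0.40 (SE 0.14 each, adjusted p = 0.382 and 0.351). The third probe, ILMN_2720640, gave -0.20 for 25 minus 0 ng/hr (SE 0.16, adjusted p = 0.570) with overlapping groups.

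Abca8b, Abca8a, Abca9, Abca6 and Abca5 follow each other in this order among the protein-coding genes of chromosome 11 in the RefSeq annotation of GRCm38.p6. The neighbours did not share a direction for 25 minus 0 ng/hr. Abca8a and the 3 Abca9 probes lay above 0, the 3 Abca6 probes lay below 0, the 2 Abca8b probes gave 0.10 and -0.17, and Abca5 was not above background.

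Abca7, Abca2 and Abca3 also belong to the A family. Abca7, which moves phospholipids and takes part in phagocytosis, had log2 signals of 6.83, 6.90 and 6.71 at 0 ng/hr, 6.56 and 6.90 at 12.5 ng/hr and 6.41, 6.44 and 6.37 at 25 ng/hr on probe ILMN_1221703. All 25 ng/hr arrays lay below the 5 others, with a difference of -0.41 for 25 minus 0 ng/hr (SE 0.11, interval -0.67 to -0.15, adjusted p = 0.126). The other Abca7 probe gave -0.45 (SE 0.20, adjusted p = 0.287) and exceeded background on 1 array at 25 ng/hr and on all 3 at 0 ng/hr.

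Abca2, a lipid transporter of late endosomes and lysosomes, had log2 signals of 5.46, 5.36 and 5.40 at 0 ng/hr, 4.90 and 5.02 at 12.5 ng/hr and 5.34, 5.66 and 5.76 at 25 ng/hr. Both 12.5 ng/hr arrays lay below all 6 others. The difference was 0.63 for 25 minus 12.5 ng/hr (SE 0.14, interval 0.32 to 0.94, adjusted p = 0.123) and -0.45 for 12.5 minus 0 ng/hr (SE 0.14, adjusted p = 0.296). Abca3, best known as the surfactant lipid transporter of the lung, gave -0.21 on both of its probes for 25 minus 0 ng/hr (adjusted p = 0.589 and 0.662).

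The D family, apart from Abcd4, carries fatty acids into peroxisomes, and it held the largest difference between the leptin doses. Abcd2, a peroxisomal transporter gene for very long chain and polyunsaturated fatty acids, had log2 signals of 6.96, 6.56 and 7.04 at 0 ng/hr, 7.32 and 7.34 at 12.5 ng/hr and 5.44, 6.50 and 6.34 at 25 ng/hr on probe ILMN_1245831. Probe ILMN_1243944 had 6.44, 6.16 and 6.53 at 0 ng/hr, 6.57 and 6.70 at 12.5 ng/hr and 5.61, 5.98 and 6.07 at 25 ng/hr. On both probes the 3 groups were separate, with 12.5 ng/hr highest and 25 ng/hr lowest, and replicate 6 was the lowest array.

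For 25 minus 12.5 ng/hr the Abcd2 differences were -1.24 (SE 0.28, interval -1.88 to -0.60, adjusted p = 0.127) and -0.75 (SE 0.16, interval -1.12 to -0.38, adjusted p = 0.123). On the first probe this is 2.36-fold lower at 25 than at 12.5 ng/hr. For 25 minus 0 ng/hr they were -0.76 (SE 0.25, adjusted p = 0.182) and -0.49 (SE 0.15, adjusted p = 0.152), and for 12.5 minus 0 ng/hr 0.48 (SE 0.28, adjusted p = 0.577) and 0.26 (SE 0.16, adjusted p = 0.600). In the authors' deposited table the ratio of 25 to 12.5 ng/hr intensities of Abcd2 was 0.541 and 0.698. Those are ratios of mean scaled intensities and not background-corrected log2 differences, so the measures are unlike. With the authors' scaled intensities the first probe's difference of 25 minus 12.5 ng/hr was -0.91 and passed (adjusted p = 0.0355). This was the only 1 of 16 alternative settings in which it passed, and over them the difference ran from -1.44 to -0.85. For 25 minus 0 ng/hr the first probe's difference ran from -0.96 to -0.43, and it was -0.43 without replicate 6.

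Markers of stellate cells, fibroblasts and cholangiocytes are given here beside Abcd2. The summed normalized intensity of the stellate cell and fibroblast markers was 8817 to 11950 at 0 ng/hr, 12460 to 12830 at 12.5 ng/hr and 7218 to 8742 at 25 ng/hr. For 25 minus 12.5 ng/hr 10 of their 11 probes lay below 0, with a median of -0.71, and Col1a1, Col3a1 and Lum passed over all probes as lower. For 12.5 minus 0 ng/hr 7 of the 11 lay above 0, with a median of 0.33. The 3 Acta2 probes (-1.07, -1.10 and -0.97) and Des (-0.54) lay below 0, and none of the 11 passed the threshold. Control replicate 1 stood apart there. On Acta2 probe ILMN_2923445 it was 9.16, against 6.31 and 5.69 in the other controls and 5.78 and 6.13 at 12.5 ng/hr. For Des it was 8.02, against 6.31 and 6.18 in the other controls. Pdgfrb was not above background on enough arrays to be tested. The 3 cholangiocyte probes had a summed intensity of 616 to 1179 at 0 ng/hr, 1594 to 1801 at 12.5 ng/hr and 582 to 778 at 25 ng/hr. This sum mainly follows Spp1, whose mean log2 signals at 0, 12.5 and 25 ng/hr were 9.63, 10.67 and 9.20. Those of Krt7 were 5.36, 4.90 and 5.08, and those of Sox9 were 4.75, 4.95 and 4.53. The difference of Spp1 was -1.47 for 25 minus 12.5 ng/hr (SE 0.26, adjusted p = 0.0637). For 12.5 minus 0 ng/hr it was 1.04 (SE 0.26, adjusted p = 0.240). In the same order Krt7 gave 0.18 and -0.47, and Sox9 gave -0.42 and 0.20. The part of these cells in the values of Abcd2 was not tested.

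Abcd3 and Abcd4 did not share this order. Abcd3, which carries branched chain fatty acids and bile acid precursors, had log2 signals of 13.35, 13.44 and 13.39 at 0 ng/hr, 13.34 and 13.32 at 12.5 ng/hr and 13.22, 13.31 and 13.46 at 25 ng/hr. The groups overlapped between 25 and 0 ng/hr, and the difference of Abcd3 was -0.06 (SE 0.10, interval -0.29 to 0.16, adjusted p = 0.799). Abcd4, which serves vitamin B12 release from lysosomes, gave 0.12 and 0.09 on its 2 probes (SE 0.17 and 0.13).

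**Figure D4:**
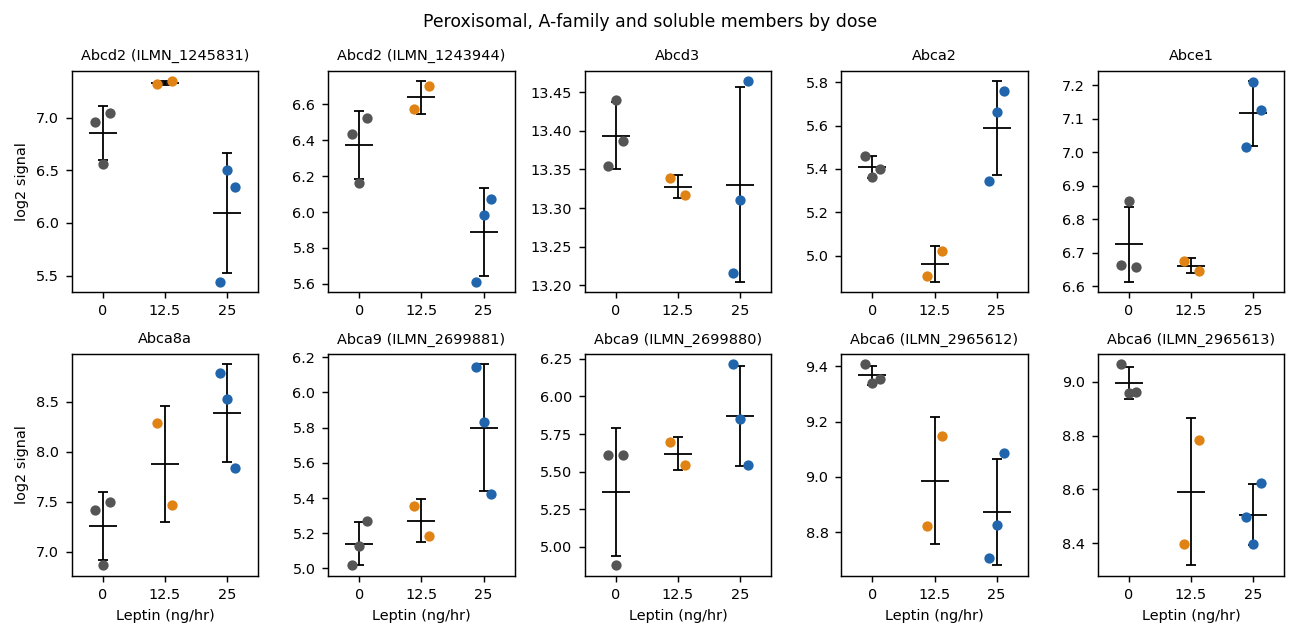
Log2 signal (vertical axes, which do not start at 0 and differ between panels) of D-family, A-family and Abce1 probes by leptin dose (horizontal axes). Points are arrays, long lines are means and bars are 1 SD (n = 3, 2 and 3). Both Abcd2 probes lie lowest at 25 ng/hr, Abca8a lies higher at 25 ng/hr than at 0 ng/hr, and both Abca6 probes lie lower on all 5 leptin arrays than on the controls, with no probe past the adjusted threshold.

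Mitochondrial and lysosomal members of the B family ran from -0.44 to 0.32 for 25 minus 0 ng/hr over 8 probes, 5 above 0 and 3 below. Abcb9 encodes a peptide transporter of lysosomes. Its probe ILMN_2597249 had log2 signals of 5.90, 5.97 and 6.13 at 0 ng/hr, 6.18 and 5.74 at 12.5 ng/hr and 5.57, 5.57 and 5.56 at 25 ng/hr. Probe ILMN_2597248 had 6.13, 6.24 and 6.40 at 0 ng/hr, 6.07 and 6.27 at 12.5 ng/hr and 5.80, 6.04 and 5.74 at 25 ng/hr. On both probes the 25 ng/hr arrays lay below the 5 others. The differences for 25 minus 0 ng/hr were -0.44 (SE 0.13, adjusted p = 0.140) and -0.40 (SE 0.12, adjusted p = 0.157).

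The mitochondrial genes of the B family were closer to 0. Abcb10, a transporter of the inner membrane needed for heme synthesis, gave 0.23 and 0.04 for 25 minus 0 ng/hr (SE 0.13 each). Abcb6, a porphyrin transporter gene, averaged 8.94 ± 0.05 at 25 ng/hr and 8.87 ± 0.03 at 0 ng/hr (SD, n = 3 each), a difference of 0.07 (SE 0.09, adjusted p = 0.755). The 3 probes of Abcb8, another mitochondrial transporter gene, gave -0.14, 0.19 and 0.32 and so differed in direction.

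Of the soluble members, Abce1 recycles ribosomes after termination. Its log2 signals were 6.66, 6.86 and 6.66 at 0 ng/hr, 6.68 and 6.65 at 12.5 ng/hr and 7.02, 7.21 and 7.13 at 25 ng/hr. All 25 ng/hr arrays lay above the 5 others. The difference was 0.39 for 25 minus 0 ng/hr (SE 0.10, interval 0.16 to 0.62, adjusted p = 0.113) and 0.46 for 25 minus 12.5 ng/hr (SE 0.11, interval 0.20 to 0.71, adjusted p = 0.159). The 8 probes of Abcf1, Abcf2 and Abcf3, which act in translation, lay between -0.15 and 0.08 for 25 minus 0 ng/hr.

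The 11 remaining probes above background belong to Abca15, Abca8b, Abcc10, Abcc9, Slco3a1 and Slco4a1. Their differences ran from -0.22 to 0.37 for 25 minus 0 ng/hr, from -0.26 to 0.41 for 12.5 minus 0 ng/hr and from -0.35 to 0.33 for 25 minus 12.5 ng/hr. The smallest adjusted p among them for 25 minus 0 ng/hr was 0.236, that of a Slco4a1 probe which exceeded background on all 3 arrays at 25 ng/hr and on 1 control array.

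Other transporters of the liver were read from a list of 11 genes on the array, 10 of them with a probe above background. None of their 16 probes passed in any comparison, and the median was -0.03 for 25 minus 0 ng/hr, against 0.00 for all probes. The water channel gene Aqp8 had log2 signals of 10.43, 10.64 and 10.55 at 0 ng/hr, 11.41 and 11.29 at 12.5 ng/hr and 11.08, 11.19 and 10.99 at 25 ng/hr on probe ILMN_2756379. All leptin arrays lay above the controls, with differences of 0.55 for 25 minus 0 ng/hr (SE 0.10, adjusted p = 0.0524) and 0.81 for 12.5 minus 0 ng/hr (SE 0.12, adjusted p = 0.116). Slc22a7, another organic anion transporter gene of hepatocytes, gave 0.47 (SE 0.12, adjusted p = 0.0974) for 25 minus 0 ng/hr. Both 12.5 ng/hr arrays of Slc22a7 lay below the controls (-0.25, adjusted p = 0.513). Its difference for 25 minus 12.5 ng/hr was 0.71 (SE 0.13, adjusted p = 0.0652). For 25 minus 0 ng/hr Ostb, a subunit gene of the basolateral bile salt exporter, gave -1.05 with overlapping groups (SE 0.33, adjusted p = 0.161). The peptide transporter genes Tap1 and Tap2 belong to the ABC superfamily by structure but not by symbol. They gave 0.46 and 0.43 for 25 minus 0 ng/hr (adjusted p = 0.127 and 0.197).

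Regulators of these transporters and the scaffold gene Pdzk1 gave no call either, over 15 probes of 11 genes above background. Pdzk1, which anchors transporters at the membrane, gave 0.38 for 25 minus 0 ng/hr (SE 0.10, adjusted p = 0.101). Nr1h3, the oxysterol receptor gene, gave 0.30 on probe ILMN_2668472 (SE 0.10, adjusted p = 0.193) and 0.16 on probe ILMN_2663374, whose groups overlapped (SE 0.11, adjusted p = 0.531). Nfe2l2, a regulator of detoxification genes, gave -0.37 (SE 0.12, adjusted p = 0.164). Nr1h4, the bile salt receptor gene, had log2 signals of 12.17, 12.27 and 12.02 at 0 ng/hr, 12.33 and 12.04 at 12.5 ng/hr and 12.06, 12.08 and 12.16 at 25 ng/hr, with overlapping groups (adjusted p = 0.846 for 25 minus 0 ng/hr). Ahr and Nr0b2 were not above background on enough arrays to be tested.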

How the data were processed

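Liver RNA from 8 samples was measured on 1 Illumina BeadChip. Flash-frozen livers went through a Trizol extraction and biotin-labelled cRNA was hybridised, per the labels' protocols. Scanner software and genome build: not given in the sources used here. For each probe on each array the authors deposited an unscaled intensity together with its detection p-value. They also deposited intensities scaled by 1 factor per array (0.92718 to 1.0811, to a mean of 492.963) and the ratio of group means for each pair of doses. The header of that table gives the middle group 3 arrays, but its mean equals that of the 2 arrays labelled 12.5 ng/hr. The series matrix holds the same scaled values, on a linear scale with no centring, with column medians of 68.4 to 74.2.

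The deposited unscaled intensities went through neqc (offset 16) of limma 3.58.1 in R 4.3.3, which corrects the background, applies quantile normalization and returns log2 values. Every probe above background was a feature. All arrays entered 1 limma fit (lmFit, eBayes) with 3 group means, adjusted by Benjamini-Hochberg at 0.05, and every adjusted p in the text comes from it unless another setting is named. Errors are the fit's SE. On simulated data with 200 of 13760 probes changed, the fit recovered 8% of changes of 0.5 and 87% of changes of 1 (log2) for 25 minus 0 ng/hr, 3% and 75% for 12.5 minus 0 ng/hr, and 13% and 76% for 25 minus 12.5 ng/hr, with 6, 5 and 1 false calls. The simulated noise was normal and independent between arrays, with variances drawn from the fit's prior. Recovery depends on the share of probes changed, so on the real arrays it may differ. The members, gene lists and markers were chosen with earlier results of these data known. Genes were named where a probe had an unadjusted p under 0.01, where groups did not overlap at a log2 difference of 0.5 or more, or by role. Values of the others are given as ranges. Not every gene that this rule names is reported here. Alternatives covered background correction, scaling, the detection filter, probes per gene, the variance prior, the groups in the fit and each array left out. The number of arrays limits the precision. Figures were drawn with matplotlib 3.10.9 in Python 3.11.15.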

Additional observations from a re-analysis of the deposited data

How the results depend on the processing

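Over 16 alternatives for each comparison, no transporter probe passed in any of the 16 for 12.5 minus 0 ng/hr, in 13 for 25 minus 0 ng/hr and in 15 for 25 minus 12.5 ng/hr. The exceptions for 25 minus 0 ng/hr were 1 probe with the authors' scaled intensities (Abca6, log2 -0.47, adjusted p = 0.0483), 2 with a trended robust prior (both of Abca6, adjusted p = 0.0343 and 0.0320) and 2 without 25 ng/hr replicate 8 (Abca8a and Abca9). For 25 minus 12.5 ng/hr the exception was 1 probe of Abcd2 with the authors' scaled intensities. The 16 alternatives are not all separate checks. For 25 minus 0 ng/hr the fits without 12.5 ng/hr replicate 4 or 5 gave the same counts as the fit of only both groups. A lone 12.5 ng/hr array adds nothing to the spread in that comparison. The count of transporter probes ranged from 0 to 2, from 0 to 0 and from 0 to 0 when each array was left out in turn, for 25 minus 0, 12.5 minus 0 and 25 minus 12.5 ng/hr. The cause of these differences was not tested. Among the named probes, signs changed in 18, 38 and 41 of 762 values each for 25 minus 0, 12.5 minus 0 and 25 minus 12.5 ng/hr, and in 0 of those for probes with a difference of 0.4 or more.

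The count over all probes moved more. For 25 minus 0 ng/hr the 118 became 257 with the authors' scaled intensities, 264 with no background correction, 330 with the trended robust prior, 56 with no detection filter, 14 with only both groups in the fit, and 1 to 205 with 1 array left out. For 12.5 minus 0 ng/hr the 0 became 18, 8, 49, 0 and 3 in the same order, and 0 to 2 with 1 array left out, and 1535 probes had an unadjusted p under 0.05. For 25 minus 12.5 ng/hr the 56 became 134, 100, 141, 21 and 74, and 0 to 68 with 1 array left out. With 1 probe per gene the counts were 89, 0 and 42, with detection on all arrays 175, 0 and 54, and with median scaling 92, 0 and 61, for 25 minus 0, 12.5 minus 0 and 25 minus 12.5 ng/hr. Where an array of 12.5 ng/hr was left out, the lone array was assumed to vary like the other groups. No paired analysis was possible because the groups share no replicate numbers. On simulated data with 200 of 13760 probes changed, few changes of 0.5 on the log2 scale were recovered with these group sizes. Recovery on the real arrays may differ. Dim probes such as those of Abca9, Abca2 and Abcc5 lie close to background.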
